A study of Mus musculus with 18 samples.

Results

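The endothelium of lymphatic vessels (LEC) was compared with that of blood vessels (BEC) in mouse embryos at embryonic day 16.5 (E16.5). The members of the comparison were the 3 LEC and the 3 BEC arrays labelled with that age, 6 of the 18 arrays of a series that holds the same groups of 3 at E14.5 and at E18.5. Each array read total RNA, labelled with biotin, on the Affymetrix Mouse Gene 1.0 ST array, which measures a gene with short probes spread along its transcript. According to the series' design, the LEC and BEC of each age came from 3 litters that served as independent replicates. The labels give the tissue only as embryonic and list no treatment. The labels describe the isolation of the cells only by citing a protocol that was not among the material read, and they give no strain, genotype, organ or number of embryos for a sample. The deposited table has 35556 rows, of which 21789 pair with 1 gene symbol, 1621 with several and 12146 with none in the platform annotation used here. The 21789 rows stand for 19938 genes, all of which were tested, and a gene with several rows was represented by the row with the highest mean over the 18 arrays.

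Blood and lymphatic endothelium share an origin: most lymphatic endothelial cells leave the embryonic veins once they express Prox1, the transcription factor that specifies and maintains lymphatic identity, and later growth of the lymphatic vessels depends on VEGF-C acting on its receptor Flt4. Blood endothelium divides into arteries, veins and capillaries, a division that Notch signalling, flow and venous transcription factors maintain, and it takes up lipids, glucose and other solutes for the tissue. Lymphatic vessels collect fluid and immune cells, have a thin and discontinuous basement membrane in their capillaries, and in the second part of gestation begin to form collecting vessels with valves.

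All levels are log2 values, so a difference of 1 is a 2-fold difference, and each difference is LEC minus BEC with its standard error (SE) after ±, for 3 arrays against 3. The differences and adjusted p-values come from 1 limma fit over the 18 arrays, with Benjamini-Hochberg adjustment over the 19938 genes. An adjusted p under 0.05 was taken as a call. The SE rests on a spread that limma pooled over the 6 groups and moderated across genes. A gene's difference therefore has the same SE at each age, whatever the spread of the arrays shown. Levels were set against a dim bound of 4.651, the 95th percentile of the values of 1210 rows for olfactory and vomeronasal receptors; where the lower group's mean was under it, the difference is also given as at least the distance of the higher group's mean from the bound. These are bulk samples, in which fewer cells of a type and less RNA per cell cannot be told apart.

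The defining markers followed the labels. Prox1 stood at 10.92, 10.99 and 11.15 on the LEC arrays and at 6.08, 6.04 and 5.98 on the BEC arrays, a difference of 4.99 ± 0.15, or 31.8-fold (adjusted p = 4.3e-14, limma). Lyve1, the hyaluronan receptor of lymphatic capillaries, and Pdpn, a membrane glycoprotein of lymphatic endothelium, were higher in LEC by 5.11 ± 0.13 and 3.57 ± 0.17. Among the blood endothelial markers, Flt1, a decoy receptor for VEGF-A, read 5.58, 5.81 and 6.0 in LEC and 10.17, 10.04 and 10.25 in BEC, a difference of -4.35 ± 0.17 (adjusted p = 7.2e-13, limma). Nrp1 and Cd34 differed by -3.91 ± 0.21 and -3.26 ± 0.20. Kdr, the main VEGF-A receptor, was detected on all 6 arrays and differed by -0.52 ± 0.09. Genes of both cell types were present throughout: Pecam1 lay between 10.47 and 10.60 in LEC and between 11.45 and 11.64 in BEC, and Tie1 differed by -0.12 ± 0.10 with overlapping arrays. No defining marker of the labelled cells was absent from the arrays that should carry it.

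Markers of other cells were read from 12 lists. The 18 macrophage genes had a mean level of 6.82 to 7.64 on the LEC arrays and 4.96 to 5.01 on the BEC arrays, and LEC replicate 2 was the lowest of its group: Csf1r, the receptor that macrophages need to survive, read 8.54, 7.21 and 8.95 in LEC against 5.18, 4.87 and 4.97 in BEC. The 10 mast cell genes lay between 9.36 and 9.49 in LEC and between 7.04 and 7.31 in BEC. The 16 keratinocyte genes lay between 5.21 and 5.86 in LEC and between 4.81 and 5.04 in BEC, with Krt5, a basal keratin, at 6.43, 6.33 and 8.29 in LEC, highest in replicate 3. Mural cell genes, 13 in number, ran the other way, at 5.20 to 5.32 in LEC and 6.22 to 6.31 in BEC. Lists for neurons, skeletal muscle and hepatocytes stayed near the dim bound in both cell types, with mean levels of 4.24 to 5.11 on any array. Limma called none of the 10 neuronal and 12 muscle genes (2 and 1 at an unadjusted p under 0.05), 1 of 8 hepatocyte genes and 1 of 7 melanocyte genes, which was Mitf. The plot of marker lists by array shows these levels, and their part in the results that follow was not tested.

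**Figure D1:**
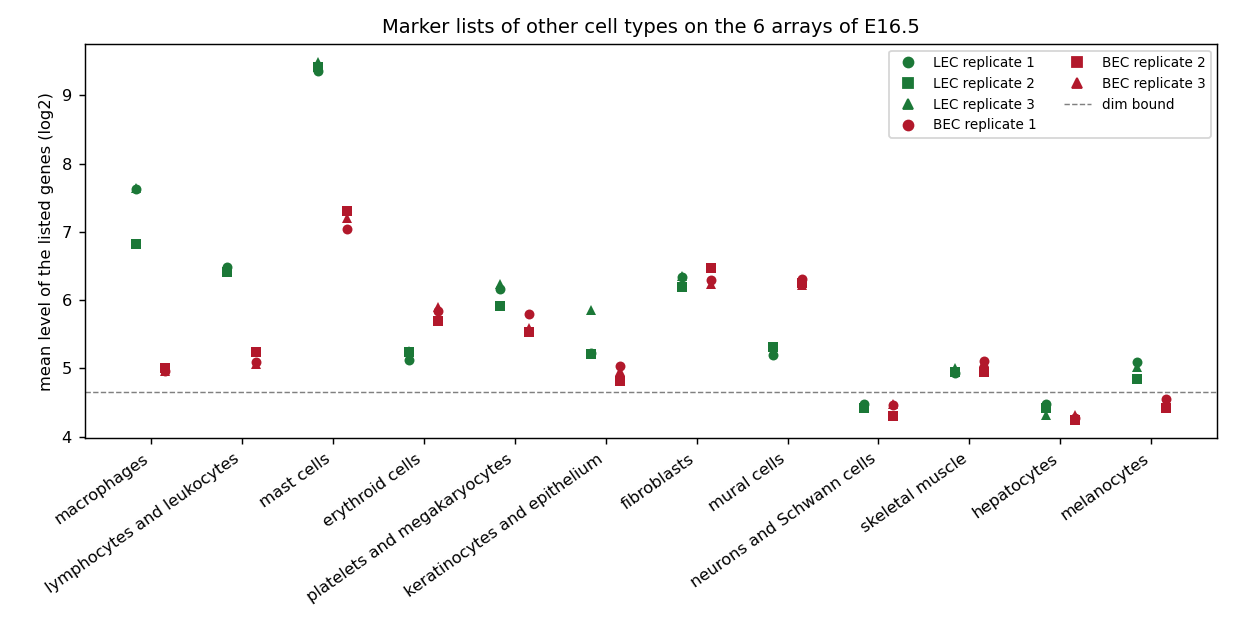
Mean log2 level of the measured genes of each of 12 marker lists for other cell types, 1 point per E16.5 array, with the LEC arrays and the BEC arrays in separate colours and the dim bound dashed. Macrophage and mast cell lists lie higher on all 3 LEC arrays (6.82 to 7.64 and 9.36 to 9.49) than on the BEC arrays (4.96 to 5.01 and 7.04 to 7.31), and the mural list lies lower (5.20 to 5.32 against 6.22 to 6.31).

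Across the 19938 genes, 5032 differed between LEC and BEC at E16.5, or 25.2% of those tested, with 2593 higher in LEC (13.0%) and 2439 lower (12.2%). These shares are the background for each count of list members that follows. A count near them is not read as a result about its list. The median difference over all genes was -0.0018, and the median size of a called difference was 0.67 with a median SE of 0.14 over all genes. Calls of at least 1 on the log2 scale made up 7.71% of the genes, 925 higher (4.64%) and 613 lower (3.07%). Those of at least 2 numbered 331 (1.66%) and 174 (0.873%), and those of at least 4 numbered 18 (0.0903%) and 13 (0.0652%). The LEC and BEC arrays did not overlap for 4962 of the 5032 called genes, and among all genes the LEC arrays lay wholly above the BEC arrays for 19.9% and wholly below for 20.5%. The lower group's mean was under the dim bound for 486 of the genes called higher and 258 of those called lower. Shifting each array to a common median moved the median of all genes to -0.109 and the split of calls to 1987 higher and 3602 lower, 35.6% higher in place of 51.5%, so small differences in either direction depend on the scaling. Arrays of 1 group at E16.5 correlated at 0.9927 to 0.9956 over all genes. The array medians at E16.5 lay between 5.434 and 5.464 over all 35556 rows. The shift above used the medians of the 19938 genes tested, which is another set.

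**Figure D2:**
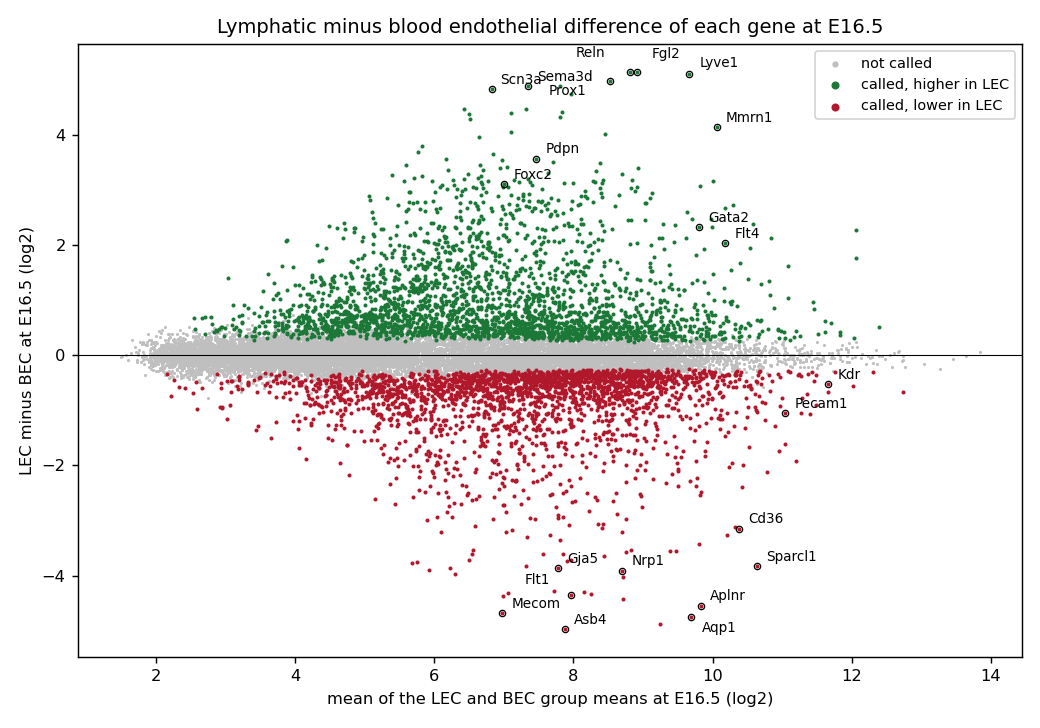
Difference between LEC and BEC at E16.5 (log2, vertical axis) against the mean of both group means (log2, horizontal axis), 1 point per gene for 19938 genes, with called genes coloured by direction. Labelled genes range from Reln at 5.15 and Lyve1 at 5.11 to Asb4 at -4.97 and Aqp1 at -4.76.

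Lymphatic identity genes were mostly higher in LEC. Of 19 measured members, 16 were higher in LEC, none was lower (also none at an unadjusted p under 0.05 in limma) and 3 were not called, with a median difference of 2.21; these genes are known as lymphatic markers, so the count describes the isolates and not an independent outcome. Reln, a secreted glycoprotein that lymphatic endothelium releases, read 11.37, 11.32 and 11.48 in LEC and 6.20, 6.32 and 6.18 in BEC, a difference of 5.15 ± 0.15 (adjusted p = 1.7e-14, limma). Sema3d, a secreted semaphorin, stood at 9.86, 9.78 and 9.74 against 4.70, 5.03 and 4.98, a difference of 4.89 ± 0.19. Mmrn1, which encodes a multimeric matrix protein also found in platelets, was 17.6-fold higher, at 12.16, 12.18 and 12.06 in LEC and 7.77, 8.26 and 7.95 in BEC. The groups were separated widely for all of these, with no LEC array within 3 log2 units of a BEC array. Thy1, a surface glycoprotein, differed by 3.50 ± 0.13, and Nts, the neurotensin precursor, by 3.37 ± 0.20, or at least 3.23 above the dim bound in LEC. Flt4, the VEGF-C receptor, was also strongly detected in BEC, at 9.20, 9.07 and 9.22, and 4.1-fold higher in LEC. Marco, a scavenger receptor of adult lymph node lymphatics, was under the dim bound in both groups.

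Transcription factors of lymphatic fate were also higher, 9 of 13 measured members with none lower (1 at an unadjusted p under 0.05 in limma), with a median of 1.63. Beyond Prox1, the factor Maf, a Prox1 partner in lymphatic differentiation, read 8.76, 8.79 and 9.17 in LEC and 6.19, 6.05 and 6.04 in BEC, a difference of 2.81 ± 0.14 (adjusted p = 1.4e-11, limma). Foxp2, a forkhead factor of collecting lymphatics, differed by 2.34 ± 0.13. Gata2, which lymphatic valves require and which blood progenitors and mast cells also use, stood at 11.01, 10.93 and 10.96 in LEC and 8.56, 8.76 and 8.60 in BEC, a difference of 2.33 ± 0.21; the mast cell list moved with it, and its part was not tested. Tbx1 and Nfatc1 differed by 1.85 ± 0.09 and 1.63 ± 0.10. Nr2f2, the venous factor that induces Prox1 in the vein, was only 1.53-fold higher in LEC, at 9.83, 9.73 and 9.85 against 9.24, 9.18 and 9.15. Sox18, which switches Prox1 on early in the vein, read 9.13, 9.10 and 9.49 in LEC and 9.45, 9.24 and 9.44 in BEC, and Hhex differed by -0.03 ± 0.13; the arrays overlapped for both and neither was called. The other SOXF factors were lower in LEC, Sox17 by 2.59 ± 0.16 and Sox7 by 1.77 ± 0.10. ETS and SOXF factors, broad regulators of endothelial genes, were divided, with 7 of 15 lower and 3 higher, 1 without BEC replicate 1 or BEC replicate 3. Elf1 was higher by 1.40 ± 0.12, Ets1, Ets2 and Etv6 were lower by 1.11 ± 0.10, 1.32 ± 0.11 and 0.91 ± 0.11, and Erg, which keeps endothelial identity, differed by 0.17 ± 0.09 without a call.

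**Figure D3:**
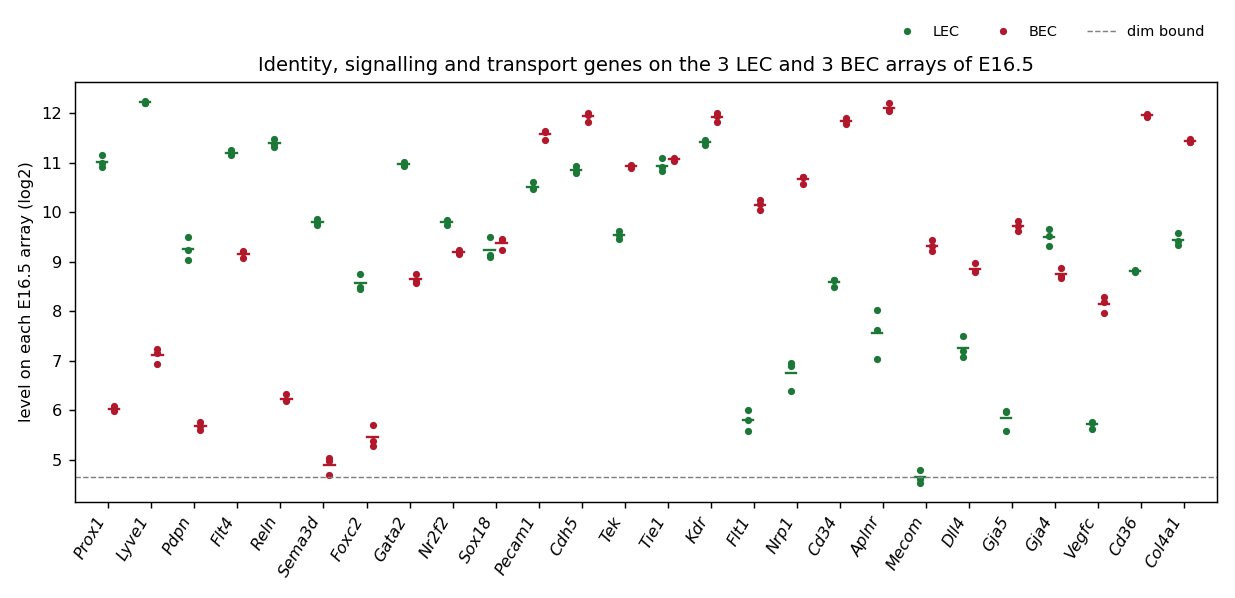
Log2 level of 26 lymphatic, blood and shared endothelial genes on each E16.5 array, 1 point per array and 1 bar per group mean, with the dim bound at 4.651 dashed. The 3 arrays of a group lie close together beside the distance between groups for Prox1 (10.92 to 11.15 against 5.98 to 6.08) and Mecom (4.54 to 4.79 against 9.22 to 9.43), whereas the groups overlap for Sox18 and Tie1.

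The sequence just upstream of the start of 5 genes that differed by more than 3 log2 units is printed here, to show what motifs of the factor families above look like in place. They were picked after the values were seen, among genes with exactly 1 promoter entry and at least 2 motif matches. The sequences are RefSeq's for the build GRCm38.p6, 250 bases that end at the start site, each 5′ to 3′ on the strand of its gene. Capitals mark every match on either strand. The letters searched were AGATAA for the factors of the Gata family, ACAAAG for SOX factors, CACGTG for the E-box, TGACTCA for AP-1 and CCGGAAGT for the core of ETS sites. Pdpn lies at chr4:143299565-143299814 on the minus strand, Sema3d at chr5:12382916-12383165 on the plus strand and Nts at chr10:102490419-102490668 on the minus strand. Ms4a2, a chain of the IgE receptor of mast cells that was higher in LEC by 3.09 ± 0.26, or at least 3.01 by the dim bound, lies at chr19:11623720-11623969 on the minus strand. C1qtnf9, a secreted protein of the C1q and TNF family that was lower in LEC by 4.31 ± 0.13, lies at chr14:60767884-60768133 on the plus strand.
Pdpn: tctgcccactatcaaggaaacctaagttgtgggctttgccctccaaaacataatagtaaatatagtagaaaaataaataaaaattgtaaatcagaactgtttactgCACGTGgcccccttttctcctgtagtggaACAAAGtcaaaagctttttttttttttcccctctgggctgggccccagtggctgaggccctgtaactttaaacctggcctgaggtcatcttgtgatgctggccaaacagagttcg
Sema3d: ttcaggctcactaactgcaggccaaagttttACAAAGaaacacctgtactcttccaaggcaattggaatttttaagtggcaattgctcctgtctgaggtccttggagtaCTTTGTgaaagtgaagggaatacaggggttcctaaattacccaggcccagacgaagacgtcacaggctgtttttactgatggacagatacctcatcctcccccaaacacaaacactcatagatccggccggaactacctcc
Nts: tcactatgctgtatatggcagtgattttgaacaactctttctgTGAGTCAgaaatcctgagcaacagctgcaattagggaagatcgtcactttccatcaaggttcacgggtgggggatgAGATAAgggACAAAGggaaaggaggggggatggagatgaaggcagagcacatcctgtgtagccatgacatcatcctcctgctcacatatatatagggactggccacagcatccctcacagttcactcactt
Ms4a2: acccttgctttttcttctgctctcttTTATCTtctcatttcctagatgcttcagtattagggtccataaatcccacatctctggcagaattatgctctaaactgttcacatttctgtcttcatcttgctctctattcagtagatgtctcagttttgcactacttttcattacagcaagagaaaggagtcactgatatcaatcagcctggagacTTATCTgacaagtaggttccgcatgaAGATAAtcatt
C1qtnf9: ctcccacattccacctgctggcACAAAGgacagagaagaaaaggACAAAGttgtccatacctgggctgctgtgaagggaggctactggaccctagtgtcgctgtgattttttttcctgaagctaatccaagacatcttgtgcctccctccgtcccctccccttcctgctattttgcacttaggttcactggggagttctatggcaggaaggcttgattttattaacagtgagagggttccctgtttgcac

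Exactly 1 such promoter was at hand for 12977 of the genes tested. AGATAA was found in 9.0% of them, in 7.8% of the promoters of all genes called higher in LEC and in 4.9% of those called lower. Among differences of at least 2 the shares were 13.8% of the higher (27 of 195) and 3.9% of the lower (4 of 103), so the higher genes lay under the share of all genes in the wider set and over it in the narrower one. ACAAAG was found in 14.9% of all, 12.2% of the higher and 13.7% of the lower genes, and in 16.9% and 12.6% at a difference of at least 2. CACGTG was found in 6.9%, 10.7% and 6.4%, and then in 8.7% and 5.8%. TGACTCA stood in 3.9%, 3.5% and 2.3%, and then in 5.6% and 2.9%, and CCGGAAGT in 4.0%, 2.9% and 4.4%, and then in 1.0% and 1.0%. Among the 13 lymphatic identity genes with 1 promoter entry, 4 held ACAAAG and 1 held AGATAA, and none of the 9 blood identity genes held any of the 5 motifs. A match is a description of these letters in this window, was not tested and shows no binding.

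Blood endothelial identity genes were lower in LEC in 15 of 15 measured members, with a median of -3.26, beside 12.2% of all genes. These genes are known as blood endothelial markers, so the count describes the isolates and not an independent outcome. Aplnr, the apelin receptor of veins and capillaries, read 7.03, 7.61 and 8.02 in LEC and 12.06, 12.05 and 12.21 in BEC, a difference of -4.55 ± 0.32 (adjusted p = 1.5e-09, limma). Aqp1, a water channel of blood capillaries, stood at 6.80, 7.43 and 7.72 against 12.12, 12.0 and 12.11, a difference of -4.76 ± 0.30. The LEC arrays spread more than the BEC arrays for both genes, yet their highest value stayed 4 log2 units or more below the lowest BEC array. Mecom, a zinc finger factor of arterial endothelium, was near the dim bound in LEC at 4.61, 4.79 and 4.54 and stood at 9.31, 9.22 and 9.43 in BEC, at least 4.67 above the bound. Vwf, the platelet-binding protein of blood vessels, and Emcn, a mucin of veins and capillaries, were lower by 3.61 ± 0.18 and 2.40 ± 0.13. Genes usually called pan-endothelial were not evenly shared either, since 11 of 18 were lower in LEC and none higher, with a median of -0.99. Esam and Clec14a, both surface proteins of endothelial contacts, differed by -4.43 ± 0.21 and -3.74 ± 0.21, whereas Cldn5 and Erg were not called.

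The VEGF family split between the vessel types, 5 of 12 genes being higher in LEC and 4 lower. Flt1 and Nrp1 were lower in LEC and Flt4 higher, as given above, and Nrp2, the co-receptor for VEGF-C, was higher by 0.62 ± 0.10, at 10.92, 10.94 and 11.10 against 10.40, 10.33 and 10.39. Vegfc, the ligand of Flt4, was lower in LEC, at 5.77, 5.75 and 5.62 against 8.19, 7.97 and 8.28, a difference of -2.43 ± 0.13 (adjusted p = 3.3e-11, limma). Pgf, a ligand of Flt1, was higher in LEC by 1.16 ± 0.22, and Ccbe1, which helps release active VEGF-C, and Vegfd differed by -0.07 ± 0.15 and -0.06 ± 0.17 without a call. In the angiopoietin system, Angpt2, the ligand that lymphatic growth needs, read 9.98, 9.66 and 9.87 in LEC and 7.72, 7.85 and 7.84 in BEC, a difference of 2.03 ± 0.12. Its receptor Tek was lower in LEC by 1.39 ± 0.10, and Ptprb, the phosphatase that restrains Tek, was lower by 1.56 ± 0.10. Of the 13 genes of this and the adrenomedullin system 4 were lower and 1 was higher, 2 without BEC replicate 1 or BEC replicate 3 and 3 without LEC replicate 3. Adm, the adrenomedullin peptide that lymphatic growth also needs, differed by 0.40 ± 0.24 without a call.

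Arterial and Notch genes were mostly lower in LEC. Of 18 arterial genes 14 were lower and 1, Gja4, was higher, with a median of -1.72; of 19 Notch pathway genes 10 were lower and 2 higher, with a median of -0.55. Among the ligands, Dll4, which restrains sprouting, read 7.19, 7.08 and 7.49 in LEC and 8.97, 8.82 and 8.79 in BEC, a difference of -1.60 ± 0.12 (adjusted p = 2.5e-09, limma), and Jag1 and Jag2 differed by -1.43 ± 0.12 and -2.44 ± 0.16. The receptors went in different directions. Notch4 was lower, at 6.07, 6.15 and 5.91 against 9.40, 9.14 and 9.36, whereas Notch2 was higher, at 9.56, 9.32 and 9.52 against 6.62, 6.89 and 6.63, a difference of 2.75 ± 0.12. Notch1 differed by -0.15 ± 0.11 and was not called. Notch3, known for mural cells, was lower by 1.26 ± 0.12, beside a mural list of which 10 of 13 genes were lower; the part of mural cells was not tested. Of the modifiers and targets, Mfng, a fringe enzyme that modifies Notch, and Nrarp, a feedback target, were lower by 2.66 ± 0.13 and 2.03 ± 0.11, and Hes1, which other pathways also induce, was higher by 0.88 ± 0.15. Gja5 and Sema3g, both arterial, differed by -3.87 ± 0.24 and -2.85 ± 0.14.

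Venous genes gave no single direction, with 2 of 9 higher and 4 lower: Ephb4, the classical venous receptor, read 10.04, 9.94 and 10.19 in LEC and 10.13, 9.90 and 10.0 in BEC with overlapping arrays. Tip cell and sprouting genes were lower in 11 of 16 cases, with a median of -1.64. Apln, the apelin peptide of tip cells, stood at 6.16, 6.03 and 5.96 in LEC and 9.80, 9.56 and 9.57 in BEC, a difference of -3.60 ± 0.25 (adjusted p = 1.3e-09, limma). Esm1, a proteoglycan of tip cells, was at 8.31, 8.39 and 8.39 in BEC and at most 5.02 in LEC, at least 3.71 apart by the dim bound. Cxcr4, the receptor of Cxcl12, and Pdgfb, which recruits mural cells, were lower by 2.50 ± 0.18 and 1.68 ± 0.11. Plaur, the urokinase receptor, was with Angpt2 the other member that was higher in LEC, by 1.35 ± 0.12.

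Guidance genes were divided, 8 of 23 higher and 8 lower, among ligands and receptors alike. Sema3a, the semaphorin that keeps mural cells from valves, read 8.41, 8.39 and 8.34 in LEC and 4.88, 4.91 and 5.01 in BEC, a difference of 3.45 ± 0.11 (adjusted p = 4.3e-14, limma). Ntn1, the netrin ligand, stood at 8.51, 8.40 and 8.66 against 5.60, 5.57 and 5.22, and Slit2, the ligand of ROBO receptors, at 7.39, 7.53 and 7.46 against 5.04, 5.08 and 5.28. All 3 ligands were separated by more than 2 log2 units from the nearest BEC array. Sema7a, a membrane-anchored semaphorin, went the other way, at 5.69, 5.69 and 5.68 against 8.90, 9.04 and 9.02. Of the receptors, Plxna4 was higher in LEC by 2.64 ± 0.18, and Plxnd1 and Robo4, both of blood endothelium, were lower by 1.73 ± 0.10 and 2.38 ± 0.15. Among 17 ephrins and EPH receptors 4 were higher and 4 lower: Ephb1 was higher by 1.86 ± 0.11, Efnb2, an arterial ligand that lymphatic valves also need, was lower by 0.59 ± 0.10, and Epha4 was lower by 1.84 ± 0.16.

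Lymphatic valve genes were higher in LEC in 12 of 20 cases and lower in 5, with a median of 0.80. Foxc2, the forkhead factor that valves require, read 8.45, 8.48 and 8.75 in LEC and 5.27, 5.38 and 5.71 in BEC, a difference of 3.11 ± 0.17 (adjusted p = 6.4e-11, limma). Itga9, an integrin subunit of valve leaflets, and its matrix ligand Fn1 were higher by 1.65 ± 0.11 and 1.09 ± 0.09. Celsr1, a planar polarity cadherin, and Cldn11, a claudin, were higher by 1.07 ± 0.09 and 1.95 ± 0.16. The connexins were split, 2 of 7 being higher and 3 lower: Gja1 and Gja4, both of lymphatic valves, were higher by 0.65 ± 0.11 and 0.74 ± 0.15, and Gja5 and Gjc1 were lower by 3.87 ± 0.24 and 0.57 ± 0.10. The members lower in LEC included Fat4, an atypical cadherin, at 7.47, 7.44 and 7.47 against 9.43, 9.41 and 9.42, and Lama5, a laminin chain, at -1.49 ± 0.15. Klf4, a factor that flow induces, was higher by 0.87 ± 0.17, and Klf2, its relative, differed by -0.25 ± 0.13 with no call.

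Integrin subunits gave 7 higher and 7 lower of 18. Higher in LEC were Itgb8, at 7.17, 6.68 and 7.0 against 4.30, 4.10 and 4.47 and at least 2.30 by the dim bound, together with its partner Itgav at 1.47 ± 0.11, both subunits of a receptor that activates TGF-beta. Itga4, a subunit that leukocytes also carry, was higher by 2.48 ± 0.19 (adjusted p = 5.9e-09, limma). Lower were the collagen- and laminin-binding subunits Itga1, Itga2, Itga3 and Itga6, by 2.46 ± 0.17, 2.16 ± 0.13, 1.21 ± 0.18 and 0.99 ± 0.11, and the fibronectin-binding Itga5, by 1.13 ± 0.10. Itgb3, a partner of Itgav, differed by 0.04 ± 0.10 and was not called.

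Basement membrane genes were lower in LEC in 10 of 16 cases and higher in 2, with a median of -0.93; without BEC replicate 2 or LEC replicate 3, only 1 was higher. The main collagen chain Col4a1 read 9.42, 9.33 and 9.58 in LEC and 11.42, 11.42 and 11.48 in BEC, a difference of -2.0 ± 0.10 (adjusted p = 2.3e-11, limma), and its partner Col4a2 differed by -1.95 ± 0.10. Col15a1, which links the basement membrane to the surrounding matrix, stood at 6.55, 6.70 and 6.85 against 10.74, 10.63 and 10.83 and was 16.4-fold lower. Hspg2, the proteoglycan perlecan, Nid2, a nidogen, and Sparc, a collagen-binding protein, were lower by 2.03 ± 0.12, 1.95 ± 0.11 and 1.92 ± 0.09. Col4a5, a chain of another collagen trimer, was the member higher in LEC on any of these reduced sets of arrays, by 1.61 ± 0.13, and Lama4, the laminin chain of all endothelium, differed by -0.08 ± 0.10 with no call.

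In the interstitial matrix, 6 of 18 genes were higher and 5 lower, 3 without BEC replicate 2 or LEC replicate 2. Tnc, an adhesion-modulating glycoprotein, read 9.66, 9.61 and 9.42 in LEC and 6.78, 6.61 and 6.60 in BEC, a difference of 2.90 ± 0.11, and Emilin2 and Emilin1, elastin-associated proteins, were higher by 2.35 ± 0.20 and 0.55 ± 0.12. Mmrn2, the endothelial relative of Mmrn1 and a ligand of Cd93, was lower by 1.36 ± 0.09, as was Cd93 itself by 3.11 ± 0.11 (adjusted p = 4e-13, limma). Col3a1 and Eln differed by 0.17 ± 0.14 and -0.16 ± 0.19 without a call. Of 16 matrix proteases and inhibitors 5 were higher, 3 without LEC replicate 2, and 7 were lower. Timp2, an inhibitor of metalloproteinases, stood at 9.51, 9.43 and 9.74 in LEC and 7.30, 7.38 and 7.26 in BEC, and Adamts5, a versican-cleaving protease, differed by 2.32 ± 0.13. Adamts1 and Adamts9, proteases of the same family, were lower by 1.34 ± 0.13 and 1.46 ± 0.16.

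Junction genes were lower in LEC in 11 of 18 cases, with a median of -0.41; 2 were called higher, both of them lost without BEC replicate 2 or BEC replicate 3 and 1 of them without LEC replicate 1 or LEC replicate 3. Cdh5, the cadherin of all endothelial junctions, read 10.78, 10.86 and 10.94 in LEC and 11.97, 11.82 and 12.01 in BEC, a difference of -1.07 ± 0.09 (adjusted p = 2.7e-08, limma). Jam2, an adhesion molecule of tight junctions, stood at 4.92, 4.64 and 4.86 in LEC and 9.19, 9.01 and 9.35 in BEC, a difference of -4.38 ± 0.19, and Jam3 was lower by 1.23 ± 0.12. Cldn5, the main endothelial claudin, read 11.21, 11.11 and 11.44 in LEC and 11.18, 11.07 and 11.07 in BEC and was not called. Tjp1, a scaffold of tight junctions, was lower by 0.47 ± 0.11, and F11r, another adhesion molecule of the Jam family, differed by -0.20 ± 0.12 without a call.

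Genes for leukocyte adhesion were lower in LEC in 7 of 14 cases and higher in 4. The selectin Sele, which slows leukocytes on blood endothelium, read 5.57, 5.58 and 5.44 in LEC and 8.88, 8.58 and 8.67 in BEC, a difference of -3.18 ± 0.28 (adjusted p = 2.8e-08, limma). Madcam1, an addressin, stood at 4.86, 4.89 and 5.34 against 7.97, 8.32 and 8.10, and Icam1, Icam2 and Vcam1 were lower by 0.82 ± 0.15, 1.44 ± 0.11 and 0.83 ± 0.15. Stab1 and Stab2, scavenger receptors of lymphatic and sinusoidal endothelium, were higher by 1.95 ± 0.11 and 2.20 ± 0.15. Macrophages carry Stab1 too, and their list was higher in 17 of 18 genes, with its 1 lower gene not called when any array but LEC replicate 3 was left out.

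Chemokines and their receptors were higher in LEC in 13 of 21 cases and lower in 4, with a median of 0.85. Higher were Ccl3, at 9.93, 9.67 and 9.50 in LEC and 7.04, 7.82 and 7.36 in BEC, a difference of 2.29 ± 0.26 (adjusted p = 7.9e-07, limma), and Cxcl2, at 1.99 ± 0.23 or at least 1.90 by the dim bound. Ccl9, Ccl2 and Ccl7 differed by 1.78 ± 0.25, 1.20 ± 0.14 and 1.11 ± 0.16. Macrophages or mast cells can make these, and both marker lists were higher on all 3 LEC arrays; their part was not tested. Cx3cr1 and Ccr2, receptors of monocytes and macrophages, were higher by 2.66 ± 0.18 and by 1.73 ± 0.20, the second at least 0.60 by the bound. Ackr2, a chemokine-scavenging receptor of lymphatic endothelium, was higher by 1.56 ± 0.19. Lower in LEC were Cxcl12, the ligand of Cxcr4, at 5.20, 5.35 and 5.46 against 7.40, 7.25 and 7.18, and Cx3cl1, the ligand of Cx3cr1, at -2.04 ± 0.19.

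Genes of lipid uptake were lower in LEC in 10 of 16 cases, with a median of -1.08. Cd36, the fatty acid translocase of capillaries, read 8.81, 8.79 and 8.83 in LEC and 11.99, 11.95 and 11.92 in BEC, a difference of -3.15 ± 0.16 (adjusted p = 1.4e-11, limma). Fabp4, a cytosolic fatty acid carrier, stood at 7.93, 8.22 and 8.14 against 11.63, 11.40 and 11.52, and Gpihbp1, which brings lipoprotein lipase to the capillary surface, at 6.69, 6.81 and 6.97 against 9.76, 9.44 and 9.72. No LEC array came within 2 log2 units of a BEC array for any of them. The transcription factors of this programme, Meox2, Tcf15 and Pparg, were lower by 2.10 ± 0.13, 1.63 ± 0.16 and 1.42 ± 0.15. Lpl, the lipase itself, was higher in LEC, by 1.08 ± 0.14; it was the single member called higher, and a second was called without LEC replicate 2. Caveolar genes were lower in 6 of 10 cases: Cav1, the coat protein, by 0.92 ± 0.11, Cavin1 by 1.08 ± 0.12 and Plvap, which forms the diaphragm of caveolae and fenestrae, by 2.54 ± 0.17, whereas Cavin2 was not called at 0.09 ± 0.10.

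Transporters were divided, 5 of 18 higher and 6 lower. Slc7a5, a carrier of large neutral amino acids, read 11.84, 11.59 and 11.87 in LEC and 9.41, 9.39 and 9.36 in BEC, and its partner chain Slc3a2 was higher by 1.04 ± 0.11. The glucose transporters went apart: Slc2a1 was lower by 1.73 ± 0.15 and Slc2a3 higher by 1.51 ± 0.13. Efflux pumps were lower in LEC, Abcb1a at 5.43, 5.39 and 5.44 against 8.57, 8.62 and 8.72 (adjusted p = 8.2e-13, limma) and Abcg2 at -1.79 ± 0.13. Slc22a8, known from brain capillaries, read 4.18, 4.09 and 5.51 in BEC, where replicate 3 stood apart, and was not called.

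Vasoactive genes were lower in 7 of 15 cases, 4 without LEC replicate 1, and higher in 2. Nos3, which makes nitric oxide in endothelium, read 6.96, 6.43 and 7.06 in LEC and 8.94, 8.65 and 8.85 in BEC, a difference of -2.0 ± 0.17 (adjusted p = 2.3e-08, limma), and Ace, the angiotensin-converting enzyme, was lower by 1.71 ± 0.14. Higher in LEC were Ptgs2, the inducible prostaglandin synthase, at 9.32, 9.03 and 8.83 against 6.21, 6.55 and 6.51, and Gucy1b1, a subunit of the nitric oxide receptor, at 2.34 ± 0.23. Of 16 coagulation genes 7 were higher and 6 lower: Plau and its receptor Plaur, F8, Thbs1 and Gas6 were higher, by 1.53 ± 0.12, 1.35 ± 0.12, 0.81 ± 0.16, 2.14 ± 0.16 and 0.90 ± 0.17, and Vwf, Thbd, the thrombin cofactor, and Plat, a plasminogen activator, were lower, the last 2 by 1.32 ± 0.13 and 0.75 ± 0.15. In lysophospholipid signalling, where 5 of 12 were lower and 3 higher, Lpar4, a lysophosphatidic acid receptor, read 5.58, 6.60 and 6.09 in LEC and 10.43, 10.49 and 10.34 in BEC, a difference of -4.33 ± 0.23. Plpp1 and Plpp3, phosphatases that degrade the lipid, were lower by 1.82 ± 0.10 and 2.09 ± 0.15, S1pr1, the main sphingosine phosphate receptor, was lower by 0.47 ± 0.10, and Sphk1, a kinase that makes its ligand, was higher by 0.80 ± 0.14.

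Of 16 genes of the insulin-like growth factor system, 3 were higher and 6 lower. The ligands Igf1 and Igf2 were higher in LEC, by 1.23 ± 0.11 and 0.51 ± 0.09, and the receptors Igf1r and Igf2r were lower, by 0.93 ± 0.12 and 1.82 ± 0.10. Of the binding proteins, Igfbp3 read 6.56, 6.60 and 6.67 in LEC and 10.37, 10.14 and 10.28 in BEC, a difference of -3.65 ± 0.13 (adjusted p = 4e-13, limma), and Igfbp7 and Igfbp2 were lower by 2.12 ± 0.13 and 2.06 ± 0.13. In the FGF pathway, where 2 of 17 were higher and 5 lower, the receptor Fgfr1 was higher by 1.03 ± 0.10, and the feedback inhibitors Spry4, Spry1 and Dusp6 were lower by 2.19 ± 0.14, 1.21 ± 0.14 and 1.05 ± 0.12. The BMP and TGF-beta list had 5 of 22 higher and 7 lower: Acvrl1 and Eng, receptors for circulating BMP9, were lower by 1.83 ± 0.13 and 0.93 ± 0.10, with the targets Id1, Id3 and Smad6 lower by 0.87 ± 0.19, 0.78 ± 0.13 and 1.03 ± 0.18. Id2 was higher by 1.32 ± 0.19, as were the ligands Tgfb1 and Gdf10 by 0.73 ± 0.10 and 2.14 ± 0.18. Of 19 WNT genes 8 were lower and 2 higher; the receptor Fzd4 was lower by 1.43 ± 0.11, Apcdd1, an inhibitor that the pathway induces, by 2.29 ± 0.15, and the receptor Fzd6 was higher by 0.72 ± 0.12. Over all genes 13.0% were called higher and 12.2% lower, so nothing is read from the higher counts of the FGF and WNT lists.

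Ion channel genes were higher in LEC in 9 of 22 cases and lower in 4. Scn3a, a voltage-gated sodium channel, read 9.25, 9.23 and 9.24 in LEC and 4.24, 4.56 and 4.43 in BEC, a difference of 4.83 ± 0.13 (adjusted p = 1.7e-14, limma) or at least 4.59 by the dim bound, and its accessory chain Scn3b differed by 2.01 ± 0.13, at least 1.85 by the bound. Kcnn3, a calcium-activated potassium channel, was higher by 2.72 ± 0.11, and Trpc6, a cation channel, by 1.45 ± 0.19. Kcna5 and Kcnj2, potassium channels, were lower, Kcna5 at 3.80, 3.86 and 4.27 against 7.90, 7.82 and 7.92 and Kcnj2 at 4.06, 3.82 and 3.77 against 7.54, 7.94 and 7.42, or at least 3.23 and 2.98 by the bound. The mechanosensitive channel Piezo1 differed by -0.10 ± 0.11 and was not called.

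Cell cycle, metabolic and immediate early genes were counted in the same way. Of 22 cell cycle genes 7 were lower in LEC, 4 without BEC replicate 1, BEC replicate 3 or LEC replicate 1, and 1 was higher: Ccnd1, the cyclin of entry into the cycle, read 9.55, 9.76 and 9.77 in LEC and 11.36, 11.32 and 11.38 in BEC, a difference of -1.66 ± 0.10 (adjusted p = 1.7e-10, limma), and Cdk1 was lower by 0.80 ± 0.10, whereas Mki67 and Pcna, marks of cycling cells, differed by -0.02 ± 0.09 and -0.06 ± 0.11 with no call. Glycolytic genes were higher in 5 of 12 cases and lower in 2: Hk2, which traps glucose in the cell, and Pfkfb3, which drives glycolytic flux, were higher by 1.69 ± 0.12 and 1.11 ± 0.15, and Pkm was lower by 0.59 ± 0.12. Of 21 respiratory chain genes 18 were not called, and the 3 lower calls were all lost without BEC replicate 1, BEC replicate 2 or LEC replicate 1, with 7 lower after the shift to a common median. Over all genes 25.2% were called. Fatty acid oxidation had 1 of 16 higher, Acadm by 0.43 ± 0.10, and 4 lower, between 1 and 2 of them left without BEC replicate 1, BEC replicate 2, LEC replicate 2 or LEC replicate 3. Cholesterol synthesis genes were higher in 11 of 16 cases, 7 without BEC replicate 3 or LEC replicate 2, with none lower and a median of 0.57: Msmo1 read 10.15, 10.26 and 10.13 in LEC and 8.85, 9.18 and 8.95 in BEC, a difference of 1.19 ± 0.16, and Lss, Sc5d and Dhcr7, enzymes of the same route, were higher by 1.04 ± 0.12, 0.99 ± 0.11 and 0.97 ± 0.12. Among 18 immediate early genes, which tissue dissociation can induce, 8 were higher and 1 was lower, the lower call being lost without BEC replicate 1, BEC replicate 2, LEC replicate 1 or LEC replicate 3. Dusp1, Nr4a1 and Egr3 were higher by 0.84 ± 0.09, 0.97 ± 0.15 and 1.01 ± 0.17, while Fos and Egr1 differed by 0.23 ± 0.13 and 0.07 ± 0.12 without a call.

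**Figure D4:**
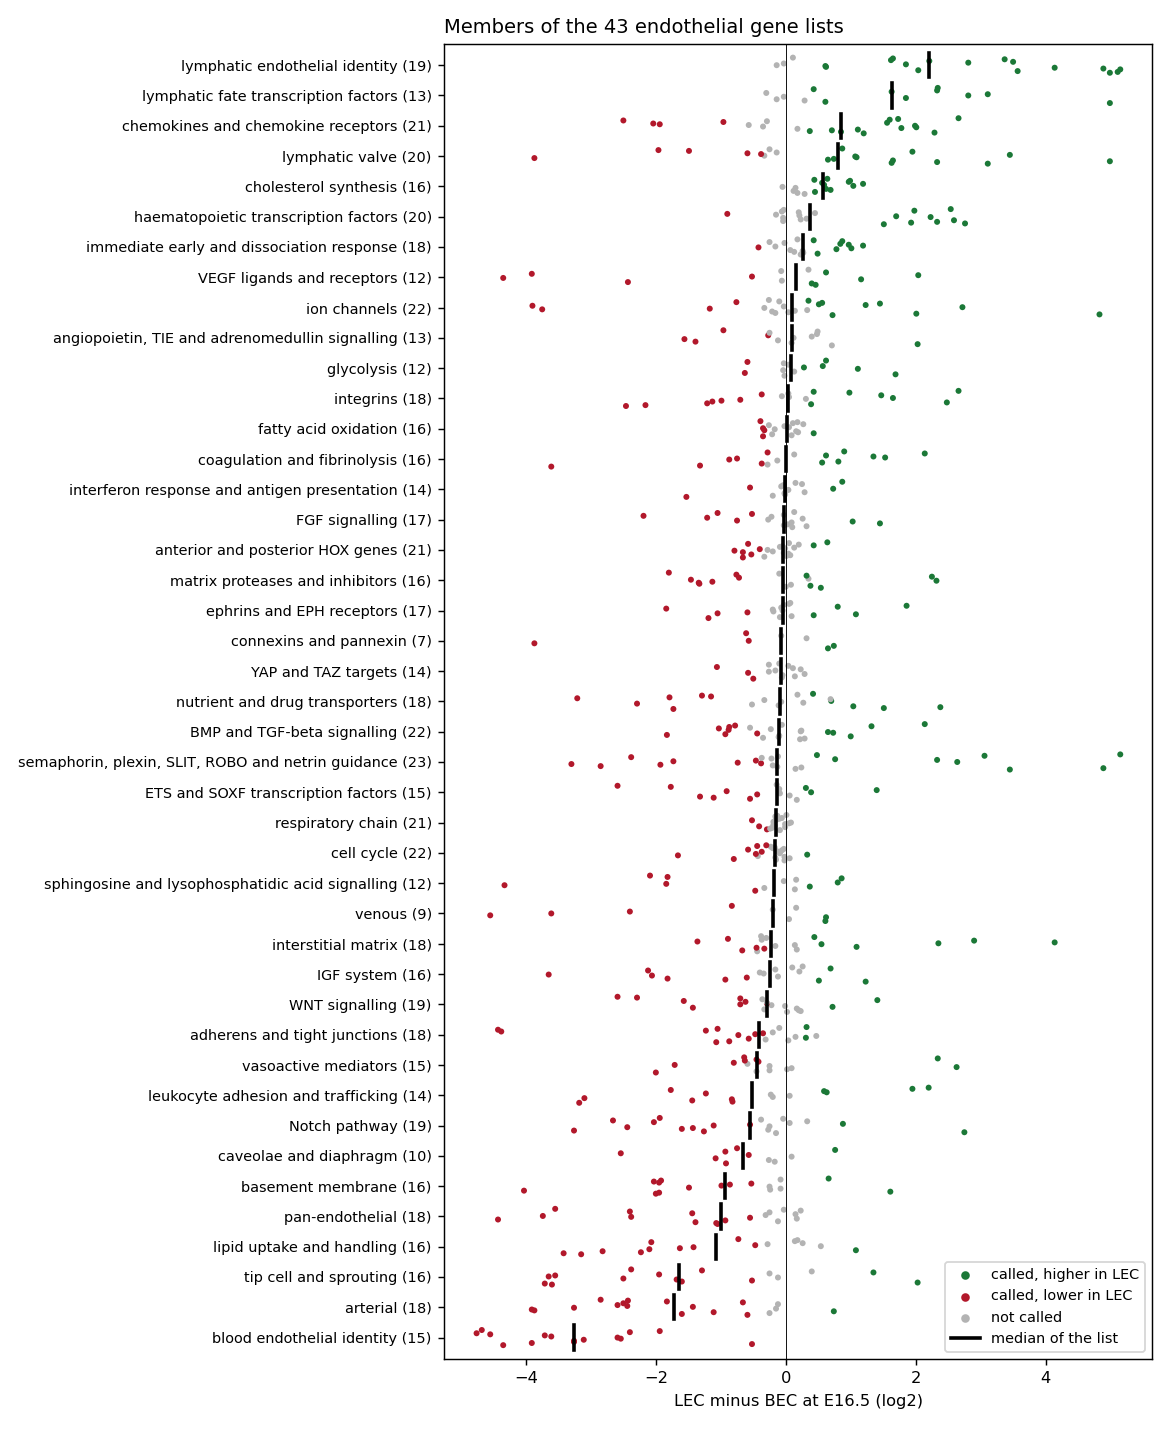
Difference between LEC and BEC at E16.5 (log2, horizontal axis) of each measured gene of 43 lists sorted as endothelial. There is 1 row per list with the number of measured genes in brackets, 1 point per gene and a bar at the list's median. The sorting also covers haematopoietic transcription factors, chemokine receptors and the dissociation response, and it does not show which cells the signal came from. The medians run from -3.26 for blood endothelial identity to 2.21 for lymphatic identity, and most lists have members on both sides of 0.

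Blood cell regulators and markers were counted list by list. Of 20 haematopoietic transcription factors 9 were higher, 10 were not called and 1, Zfpm1, was lower, by 0.90 ± 0.14. Myb, a factor of progenitors, read 9.07, 8.94 and 9.02 in LEC and 6.14, 6.37 and 6.25 in BEC, a difference of 2.76 ± 0.19 (adjusted p = 1.1e-09, limma), and Ikzf1, Spi1, Mitf and Runx1 were higher by 2.59 ± 0.17, 2.23 ± 0.24, 2.54 ± 0.21 and 1.51 ± 0.13, Spi1 by at least 2.18 against the dim bound. Tal1, Lmo2 and Cbfb, which endothelium also expresses, were not called. Of 13 leukocyte genes 8 were higher and none lower, Ptprc, the common leukocyte antigen, at 8.50, 8.30 and 8.27 in LEC and 5.64, 5.67 and 5.06 in BEC, and the T and B cell genes Cd3e and Ms4a1 were not called, at -0.09 ± 0.12 and 0.09 ± 0.17. All 10 mast cell genes were higher: Cpa3 read 12.87, 13.01 and 12.92 in LEC and 11.02, 11.39 and 11.10 in BEC, and Mcpt4 9.87, 10.16 and 9.96 against 6.37, 6.98 and 6.61, above the dim bound on the BEC arrays as well. F13a1, a macrophage and platelet transglutaminase, stood at 10.91, 9.28 and 10.84 in LEC, lowest in replicate 2, and at 5.94, 5.44 and 5.41 in BEC. Mrc1, the mannose receptor of macrophages that lymphatic endothelium can also express, read 10.34, 9.83 and 10.58 against 4.94, 5.79 and 5.34. Of the erythroid genes 4 of 9 were lower in LEC, Alas2, the enzyme of haem synthesis, by 2.17 ± 0.20. Keratinocyte genes were higher in 9 of 16 cases, but in 3 without LEC replicate 3 and in 5 without BEC replicate 2 or BEC replicate 3, and the 1 lower call was lost without BEC replicate 1 or LEC replicate 1. Of 5 platelet genes 2 were higher and 2 lower, with 1 of each without LEC replicate 1 or LEC replicate 3, 1 higher without BEC replicate 2 or BEC replicate 3 and 1 lower without BEC replicate 1; Pf4, a platelet chemokine that macrophages also make, differed by 3.05 ± 0.28. Fibroblast genes were not called in 11 of 15 cases; Thy1, the 1 that was higher, is also in the lymphatic list. Rgs5, a pericyte regulator, read 4.25, 4.79 and 4.46 in LEC and 7.51, 7.99 and 7.63 in BEC, at least 3.06 by the dim bound, and Acta2 and Abcc9, of smooth muscle and pericytes, were lower by 1.82 ± 0.25 and 1.75 ± 0.20, while Pdgfrb, the receptor that defines mural cells, was detected in both at 8.0, 7.84 and 7.97 in LEC and 7.84, 7.95 and 7.78 in BEC and was not called.

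The difference at E16.5 was then set against that of the ages on either side. It differed from the difference at E14.5 for 524 genes, 2.63% of those tested, 376 upward (1.89%) and 148 downward (0.742%), and the difference at E18.5 differed from it for 728 genes (3.65%), 306 upward (1.53%) and 422 downward (2.12%). Both tests use the E16.5 arrays, so their values stand side by side and were not set against each other. After the shift to a common median the upward share of the calls was 53.9% in place of 71.8% for the first (277 and 237 genes) and 61.4% in place of 42.0% for the second (457 and 287 genes). The first count was lowest without LEC E14.5 replicate 3, at 310, and it was 315 without LEC E16.5 replicate 1, 323 without LEC E14.5 replicate 1 and 326 without BEC E14.5 replicate 1. The second was 431 without LEC E16.5 replicate 1 and 472 without BEC E16.5 replicate 2. Of 40 genes named for the first test and 36 for the second, Il3, Car3 and Tac1 in the second lost their call under at least 1 setting. The others kept call and direction under all settings tried. Lyve1 and Mrc1, whose means are given below, were not among the 40, and their changes were not followed through the settings.

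Of the 19 lymphatic identity genes, 11 changed upward in the first step and none downward, with list medians of 1.26, 2.21 and 2.49 in order of age. The difference for Prox1 was 2.51 at E14.5 and 4.99 at E16.5, larger by 2.48 ± 0.22 (adjusted p = 4e-06, limma), and that for Reln went from 3.0 to 5.15. Much of both changes lay in BEC. The Prox1 mean went from 7.97 to 6.03 in BEC and from 10.49 to 11.02 in LEC. For Reln the means went from 7.95 to 6.23 in BEC and from 10.95 to 11.39 in LEC. Lyve1 changed mainly in LEC, from 11.57 to 12.22, against 7.25 and 7.11 in BEC. Blood identity genes gave medians of -3.10, -3.26 and -3.10, with 2 of 15 called in the first test, both downward. Valve genes changed between E14.5 and E16.5 in 7 of 20 cases, all upward: Foxc2 differed by 1.78 and then 3.11, and Gja4, the connexin of valves and arteries, turned from -1.53 at E14.5 to 0.74 at E16.5 and 1.06 at E18.5, a change of 2.27 ± 0.21 in the first step (adjusted p = 9.3e-06, limma). Thbs1, a matricellular protein, also turned, from -0.68 to 2.14. Integrins changed in 5 of 18 cases, all upward, Itgb8 from 0.47 to 2.66 with its BEC mean at E16.5 under the dim bound, and Fn1 went from -0.01 to 1.09 and then 1.91. Mmrn1 and Foxp2 were further apart at each later age, at 2.13, 4.14 and 5.81 and at 0.77, 2.34 and 3.42. Macrophage genes changed in the first step in 12 of 18 cases, all upward, their list median going from 0.75 to 2.64 in the same step as the lymphatic list. The F13a1 mean went from 6.66 to 10.34 in LEC and from 5.19 to 5.60 in BEC. For Mrc1 the means went from 9.92 to 10.25 in LEC and from 7.09 to 5.36 in BEC. The part of macrophages was not tested.

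Other genes changed after E16.5. Angpt2 differed by 1.74, 2.03 and 0.71 at the 3 ages, a change of -1.32 ± 0.17 in the second step (adjusted p = 0.00025, limma), so the higher level in LEC narrowed. Cholesterol synthesis moved the other way, with 7 of 16 genes called upward and none downward in the second step: Sqle differed by -0.05 at E16.5 and 0.79 at E18.5, Hmgcs1 by 0.29 and 1.33 and Msmo1 by 1.19 and 2.22. Itga4 narrowed from 2.48 to 0.85. Il6, an inflammatory cytokine, read 8.75, 8.93 and 7.99 in LEC at E16.5 and 5.10, 6.12 and 5.12 in BEC, a difference of 3.11 ± 0.36 that was -1.91 at E18.5, a change of -5.02 ± 0.50 (adjusted p = 4.2e-05, limma). Its mean rose in BEC from 5.45 to 9.20 and fell in LEC from 8.56 to 7.29. Macrophage and mast cell lists were higher on the LEC arrays of E16.5. In the second step the median difference of the macrophage list went from 2.64 to 3.13. That of the mast cell list went from 2.25 to 3.73. The part of these cells in the Il6 values was not tested. Among mural genes, 4 of 13 changed downward in each step. Rgs5 went from -0.99 to -3.21 in the first, with its LEC means at both ages under the dim bound. Pdgfrb went from 0.08 to -2.59 in the second. Its mean fell in LEC from 7.93 to 6.25 and rose in BEC from 7.86 to 8.84. Scarb1, a lipoprotein receptor, differed by -1.54, -2.07 and -3.36, of which the second step was called. Sele differed by -1.30, -3.18 and -4.05, of which the first step was called, at -1.88 ± 0.39 (adjusted p = 0.012, limma), and the second was not, at -0.87 ± 0.39 (adjusted p = 0.25, limma).

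**Figure D5:**
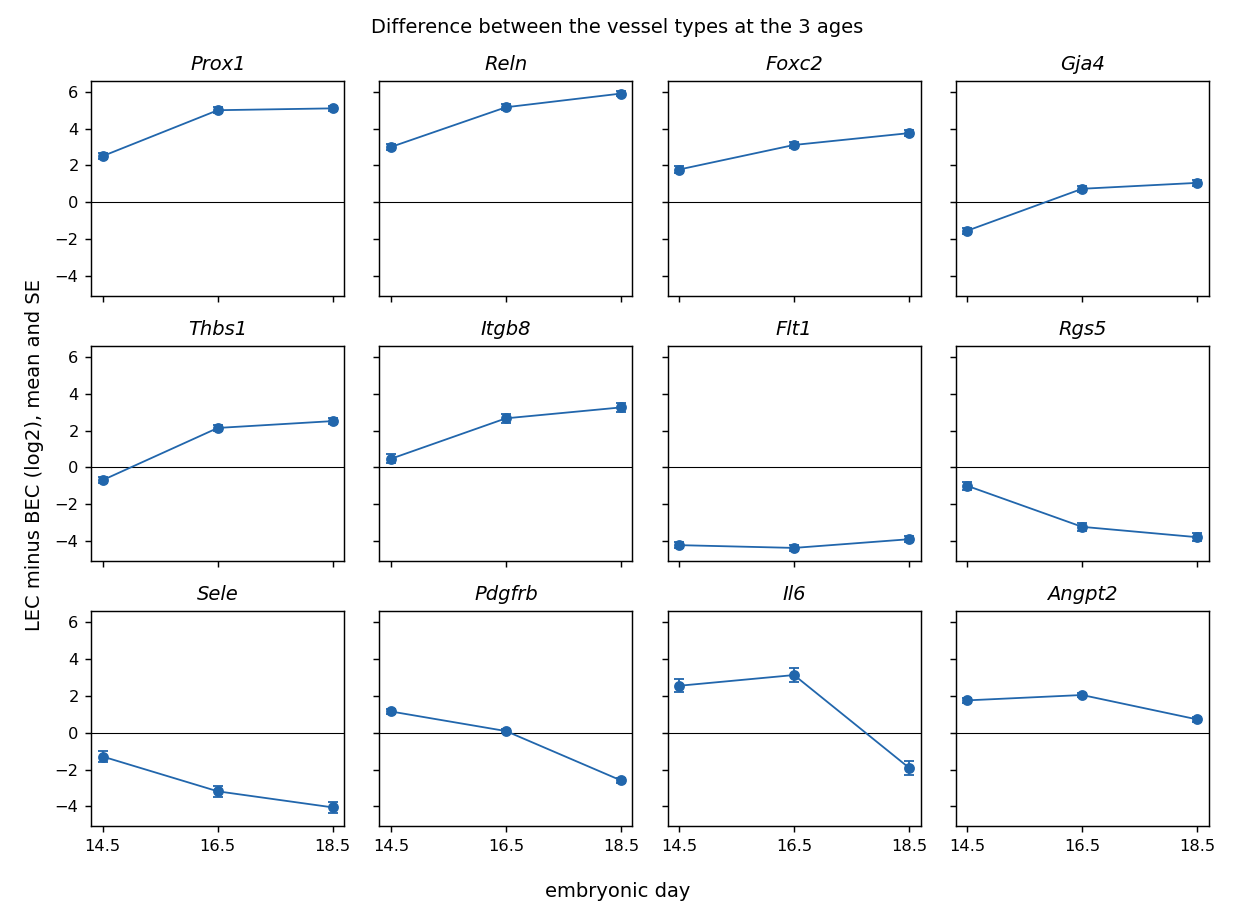
Difference between LEC and BEC (log2, vertical axes) against embryonic day for 12 genes, 1 panel each, with points at the mean difference and bars of 1 SE. The bars of a gene are equal at all ages because the spread was pooled over the groups. Gja4 crosses from -1.53 to 0.74 and Thbs1 from -0.68 to 2.14 between E14.5 and E16.5. Between E16.5 and E18.5, Il6 crosses from 3.11 to -1.91, and Pdgfrb goes from 0.08, which was not called, to -2.59.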

How the data were processed

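RNA of mouse embryonic LEC and BEC was measured on Affymetrix Mouse Gene 1.0 ST arrays, 18 in all and 3 for each cell type and age, and every sample was grouped by its label. The deposited values are log2 expression made by the authors with RMA in the oligo package, version 1.54.1, per the submitters' processing notes; RMA corrects background, equalises the arrays' distributions and combines the probes of a row. Whether the arrays were processed together is not given in the sources used here. Arrays give no read depth, and precision is limited by how many there are.

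The values were used as deposited. Rows were named through GEO's platform annotation, in which 21698 of 21789 rows with 1 symbol matched RefSeq by Entrez identifier and no symbol changed. Where a gene had several rows (999 genes), the row with the highest mean over the 18 arrays was taken. One limma 3.58.1 model in R 4.3.3 was fitted to the 6 groups with no filter, with 12 residual degrees of freedom. Its contrasts were LEC minus BEC at E16.5 and that difference minus those of the ages before and after, each adjusted by Benjamini-Hochberg over 19938 genes. The fit was tested on simulated data.

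The text names the 25 largest non-overlapping called differences each way, measured members of 55 lists and the 8 largest changes each way between ages. Predicted, clone-named, receptor-family and small RNA genes were passed over among the largest differences and changes. The lists, 43 sorted as endothelial and 12 of other cells, hold 792 genes, of which 741 were measured. The 5 promoters were chosen after values were seen. The comparison and the lists were chosen with earlier results of these data known. Samples of the same replicate number at E16.5 had correlations of their deviations of -0.0427, 0.103 and 0.101, and the labels do not say that a number marks a litter, so no block was used. Alternatives were other scalings, sets of arrays, variance models, array weights, a filter on dim genes, the mean of a gene's rows, a replicate block and leaving out each array.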

Additional observations from a re-analysis of the deposited data

Results flagged for a closer look

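The difference between LEC and BEC was tested for a change between ages, and 524 genes changed from E14.5 to E16.5 and 728 from E16.5 to E18.5. The values that follow are changes of the LEC minus BEC difference on the log2 scale, later age minus earlier age, each with an adjusted p under 0.05 in limma. A positive value means that the difference moved toward LEC, through a higher LEC level, a lower BEC level or both. For Pdpn in the first step the mean fell in LEC from 9.65 to 9.25 and in BEC from 7.39 to 5.69. At least 1 of the 4 group means was under the dim bound for 12 of the genes named for the first step and 10 of those named for the second. The sizes of these changes are not exact and have no order, and they are given a second time with each such mean set at the bound, a choice made after the values were seen.

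From E14.5 to E16.5, lymphatic and valve genes changed by 2.48 for Prox1, 2.15 for Reln, 2.08 for Sema3d, 2.01 for Mmrn1, 1.31 for Pdpn and 0.77 for Flt4. The factors Foxc2, Foxp2, Maf and Tbx1 changed by 1.33, 1.57, 1.08 and 0.88. Gja4, Itgb8, Fn1, Sema3a, Efnb2 and Slit2, genes of valves, adhesion and guidance, changed by 2.27, 2.19, 1.10, 1.11, 1.02 and 1.15. Matrix and protease genes changed by 2.82 for Thbs1, 1.52 for Adamts5, 1.58 for Bgn and -1.38 for Htra1. Among the channels and receptors, Scn3a changed by 1.84, Kcne3 by 2.05 and Stab2 by 1.02. Other upward changes were those of Cp, a copper-binding ferroxidase, at 3.04, Pkhd1l1 at 2.80, Klrb1f at 3.35 and Ms4a4a at 3.59. Genes found in macrophages or platelets changed by 3.39 for Cd163, 3.28 for F13a1, 3.30 for Pf4 and 2.12 for Ccl12, beside the rise of the macrophage list whose part was not tested. Downward changes were -2.22 for Rgs5, -1.88 for Sele and -1.47 for Fabp5. Aqp7, Mgll and Rbp7, genes of lipid and retinoid handling, changed by -2.0, -1.90 and -1.66, and Ablim3, Galnt15 and Pcdh18 by -1.93, -2.16 and -1.64. With means under the bound set at it, Ccl12, Cd163, Pkhd1l1 and Klrb1f changed by 0.67, 2.38, 1.86 and 3.07, and Cp and Ms4a4a by 3.31 and 3.88. Itgb8, Scn3a and Adamts5 then changed by 1.83, 1.60 and 1.57, and Rgs5, Aqp7 and Rbp7 by -2.84, -2.15 and -1.61.

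From E16.5 to E18.5, cholesterol synthesis genes changed by 1.04 for Hmgcs1, 1.28 for Idi1, 0.84 for Sqle, 1.34 for Cyp51, 1.03 for Msmo1 and 0.86 for Sc5d. Mmrn1, Sema3a, Fn1 and Foxp2 changed a second time in the same direction, by 1.67, 1.23, 0.82 and 1.08. Growth factor genes changed by 1.39 for Fgfr2, 0.87 for Igf1 and -1.32 for Angpt2. Mural genes changed by -2.67 for Pdgfrb and -1.74 for Myh11. Immune and stress genes changed by -5.02 for Il6, -1.91 for Il3, -1.98 for Cxcl10, 2.01 for Ccl3, -1.56 for Psmb8, -1.85 for H2-Oa, -1.28 for Nr4a1 and -1.97 for Nr4a3. Transport and receptor genes changed by -1.29 for Scarb1, -1.27 for Slco2b1, -1.72 for S1pr3 and -1.63 for Itga4. The mast cell receptor genes Mrgprb1, Mrgprb2 and Mrgprx2, a family with near-identical copies whose rows may share signal, changed by 2.90, 2.56 and 3.14. Hbb-y, an embryonic globin with near-identical relatives, changed by 1.97, and Tac1, Car3, Mctp1, Dsc3 and Ctsj by 2.31, -3.43, -2.32, 2.18 and 1.97. With means under the bound set at it, Mrgprb1, Mrgprb2 and Mrgprx2 changed by 3.92, 2.91 and 3.27, Tac1 and Dsc3 by 2.95 and 2.81, Ctsj and Hbb-y by 1.37 and 1.83, and Il3, Car3 and H2-Oa by -3.01, -3.37 and -1.20. Of the genes named here, Il3, Car3 and Tac1 lost their call under at least 1 alternative setting.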

How the results depend on the processing

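The count of 5032 genes at E16.5 stayed within 1.5 times under every alternative tried, between 4241 and 6125, and between 4241 and 4485 when 1 array was left out. It was 5589 after a shift to a common median, 5104 after quantile normalization (2486 higher and 2618 lower), 5108 without dim genes and 6009 without the E18.5 arrays. The 524 genes whose difference changed between E14.5 and E16.5 became 839 with only the compared arrays and 1215 with array weights, and 310 to 490 when 1 array was left out. The 728 genes of the next step became 351 and 395 under the same 2 settings, and 431 to 995 when 1 array was left out. The cause was not tested. With the replicate block as a fixed term the counts were 4830, 448 and 577, and as a random term 5086, 540 and 748; no count moved by 1.5 times. Of 786 genes named or listed, 158 gained or lost their call at E16.5 under at least 1 setting. None that was called in the main fit or under the setting turned direction. Turns of genes called in neither were not counted. Of 1870 values of the 110 counts of list members, 120 moved by over 1.5 times, in 32 counts. After the shift to a common median 5 genes of the YAP list were lower in place of 3, and 5 of the fibroblast list in place of 3. The changes between E16.5 and E18.5 of Il3, Car3 and Tac1 lost their call under some settings. Another row of Hk1, Igf2bp1, Scn9a and Elf4 had the opposite direction to the row used. Other rows of the same direction could differ in size. Those of Prkcz, Mitf, Irf1 and Mecom gave 1.65, 1.33, -0.46 and -3.26, against 4.33, 2.54, -1.53 and -4.68 for the rows used. A row of Adamts9 gave a larger size, -2.45 against -1.46. Differences near the dim bound have lower limits only.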

Other observations

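Genes outside the endothelial lists were among the largest differences at E16.5. Fgl2, a secreted or membrane-bound relative of fibrinogen that macrophages also make, read 11.53, 11.42 and 11.50 in LEC and 6.58, 6.36 and 6.10 in BEC, a difference of 5.14 ± 0.15. Ptx3, a soluble pattern recognition protein, Tc2n and the polarity genes Pard6g and Prkcz differed by 4.42 ± 0.24, 4.47 ± 0.22, 4.40 ± 0.12 and 4.33 ± 0.17. Prkcz read 9.91, 9.94 and 10.07 in LEC and 5.64, 5.81 and 5.49 in BEC. Another row of Prkcz differed by only 1.65, so the size for this gene depends on the row. Hapln1, a link protein of hyaluronan, Fndc1, Gpm6a, Sh3gl3 and Plce1, a phospholipase, were higher in LEC by 3.66 ± 0.27, 4.06 ± 0.13, 4.02 ± 0.18, 3.97 ± 0.16 and 3.55 ± 0.15. Cp, Fibin and Nrcam, a neuronal adhesion molecule, were under the dim bound in BEC and higher in LEC by at least 4.01, 4.04 and 3.30. Ms4a4a and Ms4a6c, genes of myeloid cells, were higher by at least 4.02 and 2.96, beside a macrophage list that was higher on all 3 LEC arrays; its part was not tested.

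Among the largest differences toward BEC were Asb4, a ubiquitin ligase subunit, at 4.83, 5.82 and 5.52 in LEC and 10.22, 10.67 and 10.18 in BEC, and Tmem255a, at 6.55, 6.87 and 7.02 against 11.69, 11.74 and 11.65. Kitl, the ligand of the receptor Kit, read 5.42, 5.54 and 5.79 in LEC and 9.78, 9.89 and 9.93 in BEC, a difference of -4.28 ± 0.17, while Kit itself, a mast cell list member, was higher in LEC by 1.68 ± 0.15. Palmd, Sparcl1 and Dach1, a transcription factor of arterial growth, differed by -4.29 ± 0.24, -3.83 ± 0.23 and -3.71 ± 0.14. Their differences at E14.5 were -4.23, -4.38 and -2.80. Plac1, Pcdh19, a protocadherin, and Akr1c14 were under the dim bound in LEC and higher in BEC by at least 3.64, 3.51 and 2.92, and Vsig2 was lower in LEC by 3.83 ± 0.15.

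Of 21 HOX genes, which mark position along the body, 6 were lower in LEC and 2 higher, 1 without BEC replicate 1, LEC replicate 1 or LEC replicate 3. Hoxb4 and Hoxd10 differed by -0.79 ± 0.16 and 0.64 ± 0.15. The list of YAP and TAZ targets also holds Yap1, Wwtr1 and the Tead and Lats genes, which belong to the pathway itself. Of its 14 genes 3 were lower, Amotl2 by 1.06 ± 0.11. Of 14 interferon genes 2 were lower, 1 without LEC replicate 2, and 2 were higher, 1 without BEC replicate 3 and none without LEC replicate 1. Irf1 differed by -1.53 ± 0.13. Over all genes 25.2% were called, 13.0% higher and 12.2% lower. The YAP and interferon counts and the higher HOX count are near the share of all genes, so nothing is read from them.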
